A study of Homo sapiens with 18 samples.

Results

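The G1 cyclins and the kinases and inhibitors that act with them were read as 10 genes (CCND1, CCND2, CCND3, CCNE1, CCNE2, CDK4, CDK6, CDKN1A, CDKN1B and CDKN2A). They are a named set of genes, matched to the table by gene symbol, and were covered by 12 of the 21111 probes in the table, which names 19289 gene symbols. The table holds 18 TempO-Seq libraries of human triple-negative breast cancer (TNBC) cell lines. TempO-Seq is a targeted RNA sequencing assay in which pairs of detector oligos are ligated on their target RNA and the ligated product is counted. BT549 and Hs578T, which the study calls mesenchymal-like, and SUM149PT, which it calls basal-like, were each transfected with 50 nM of siRNA and lysed after 72 h, with 3 libraries for siASAP1 and 3 for siCtrl in each line. siASAP1 was a SMARTpool, a mix of several siRNAs, against ASAP1, an Arf GTPase-activating protein.

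siCtrl is called non-targeting in the study's results, while its methods describe a pool of siRNAs against kinases. It was the only control. The methods describe the pool as having no significant effect on any one kinase gene. Whether CDK4 and CDK6, which are kinases, are among its targets is not given in the sources used here, and its part in the CDK values was not tested. All groups therefore carry siRNA and transfection reagent, and no untreated cells were analysed here. The study describes the 3 libraries of a group as biological triplicates.

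In G1, D-type cyclins bind and activate CDK4 and CDK6, and E-type cyclins bind and activate CDK2. These kinases phosphorylate the retinoblastoma protein (RB), which releases E2F factors that switch on genes for DNA replication. The inhibitors p21 (CDKN1A) and p27 (CDKN1B) bind cyclin and CDK complexes, and p16 (from CDKN2A) blocks CDK4 and CDK6 directly. Loss of RB and gain of cyclin E are known events in basal-like breast cancer.

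The libraries held 4633629 to 12488575 reads each. Silencing was read first from the ASAP1 probe. It gave 944 to 1107 normalized counts in the BT549 siCtrl libraries against 367 to 783 under siASAP1, and 1414 to 2697 against 782 to 1261 in Hs578T, with no overlap in either line. In SUM149PT, 2 siCtrl libraries gave 1087 and 1314 and the siASAP1 libraries gave 184 to 468, but the library labelled SUM149PT siCtrl replicate 2 gave 189, within the siASAP1 range. That library also stood apart from its group over all probes (mean r of 0.773 with the other replicates, against 0.846 to 0.961 for the remaining 17 libraries), so the values of the tested members in SUM149PT and the list counts there are given with and without it. ASAP1 had a Log2 FC of -0.75 (BT549), -0.98 (Hs578T) and -1.16 (SUM149PT; -2.04 without that library), with limma adjusted p = 0.65, 0.91 and 0.66. The epithelial marker EPCAM was at 20396 to 36679 normalized counts in SUM149PT siCtrl libraries and at most 23.6 in those of the other lines. Leukocyte markers were at 3.94 normalized counts or less in sum in every library.

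A normalized count is the number of reads of a probe divided by the size factor of its library. Probes differ in efficiency, so transcript levels were compared between libraries for one probe and not between genes. Where genes are ordered by count, the order is that of the reads of their probes and does not rank their transcripts. Log2 FC is the difference of the mean log2(normalized count + 1) values, siASAP1 minus siCtrl, which understates the change of probes near 0. Within a cell line a probe was called at the limits of the study, an unadjusted p under 0.05 with an absolute Log2 FC over 1. Fits over all cell lines and between control lines were called at an adjusted p under 0.05. In bulk lysates, fewer cells with a transcript and less transcript in each cell cannot be told apart.

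The members fell into a measured and an unmeasured set. CDK4 was read at a mean of 13079 normalized counts over the 18 libraries, above 99.7% of all probes, followed by CDK6 (1061), CDKN1B (454), CCNE2 (220), CCND3 (30.6) and CCNE1 (24.1, probe CCNE1_22579). These 6 probes passed the filter of a mean normalized count of 10 in every comparison. CCND1 (7.74) passed it in SUM149PT alone. The other probe of CCNE1 (CCNE1_1070), CDKN1A and CDKN2A did not pass, and neither probe of CCND2 had a read in any library.

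**Figure D1:**
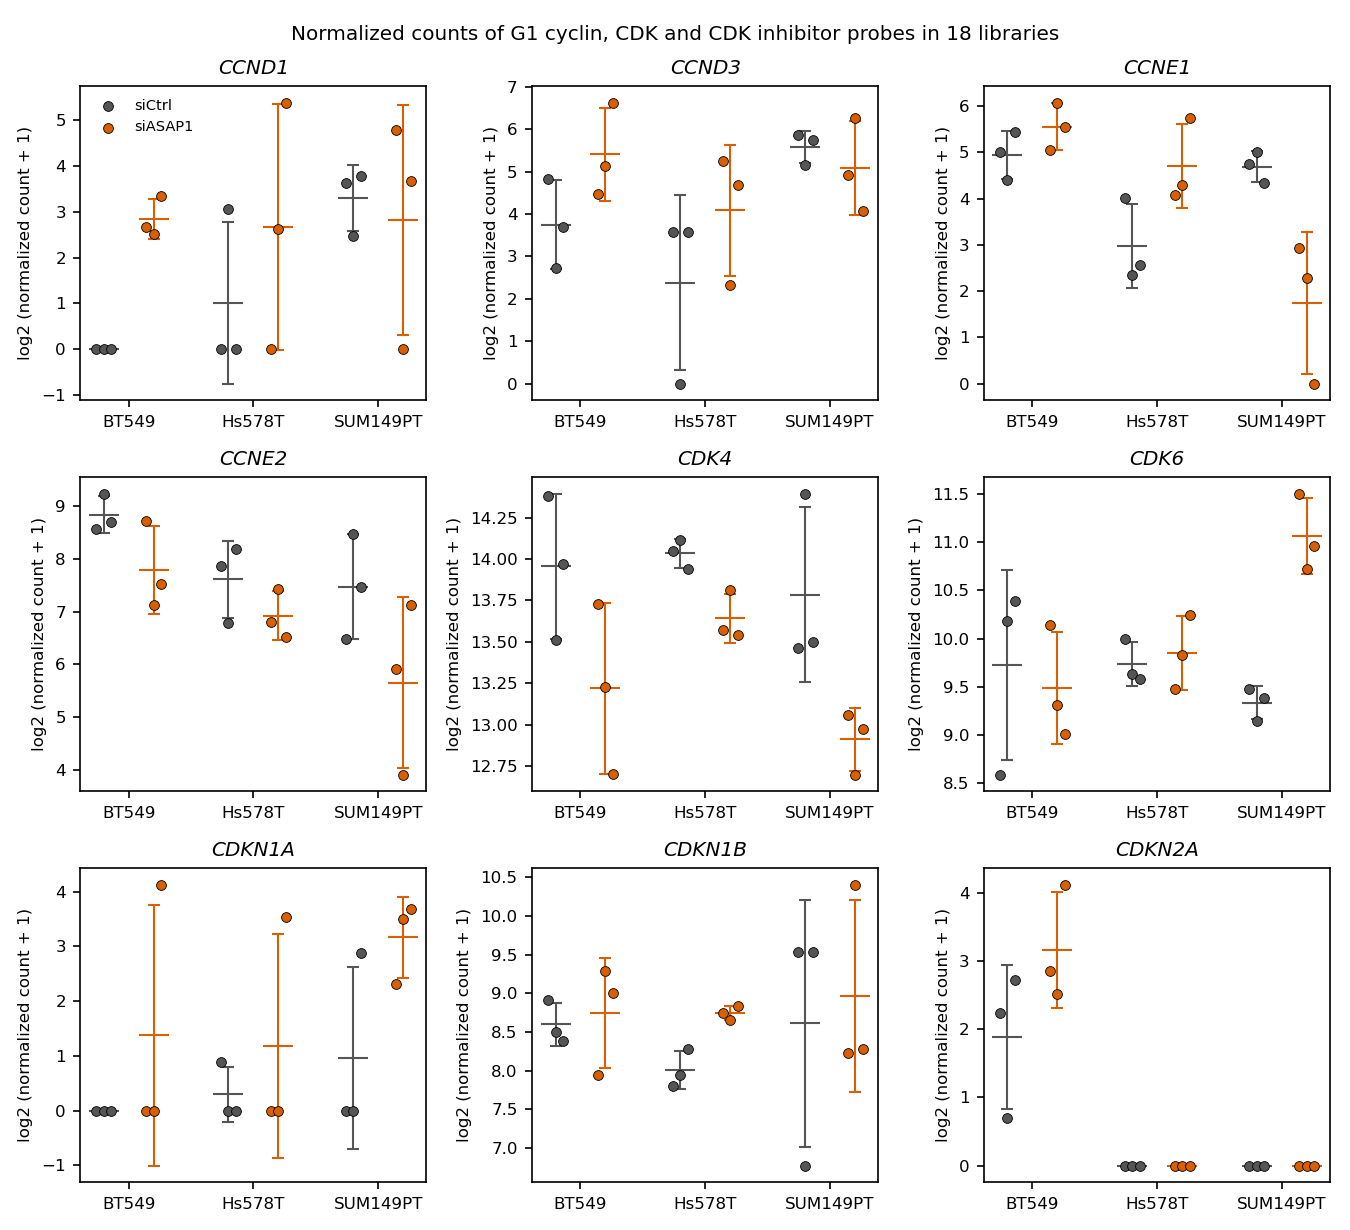
Each panel plots log2(normalized count + 1) of a probe in the 18 libraries by cell line, with siCtrl in grey and siASAP1 in orange; points are libraries and bars are the mean and SD of 3. The SUM149PT siASAP1 points lie above their siCtrl points for CDK6 and below them for CDK4 and CCNE1, and CDKN2A has reads in BT549 libraries alone.

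D-type cyclins gave few reads in these lines. CCND1 (chr11:69641087-69654474, plus strand, GRCh38) encodes cyclin D1, the partner of CDK4 and CDK6 most often amplified in breast cancer. Its probe had reads in 11 of 18 libraries and at most 38 reads in any of them. In BT549 it gave 0 normalized counts in all 3 siCtrl libraries and 5.33, 4.72 and 9.13 under siASAP1. The groups did not overlap (exact permutation p = 0.1, the smallest that 3 against 3 libraries allow), and these values rest on 5 to 10 reads. A count of 0 allows up to 3 reads, which is 1.89 to 3.74 normalized counts in BT549 libraries. In Hs578T the siCtrl libraries gave 0, 7.34 and 0 and the siASAP1 libraries 0, 5.20 and 40.5. In SUM149PT they gave 11.4, 4.56 and 12.8 against 26.5, 0 and 11.8, and the groups overlapped in both lines. The Log2 FC in SUM149PT, the only line in which CCND1 was tested, was -0.48 (SE 1.51), -0.89 without the library labelled SUM149PT siCtrl replicate 2 and 0.93 without SUM149PT siASAP1 replicate 2, which was at 0.

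CCND2 (chr12:4273772-4305350, plus strand), the gene of cyclin D2, had 0 reads from both of its probes in 18 of 18 libraries. At these depths, 3 reads correspond to 1.73 to 4.80 normalized counts, so cyclin D2 transcript was not detectable above that level by these probes. CCND3 (chr6:41934933-42050357, minus strand) encodes cyclin D3 and is the only D-type cyclin that could be tested in every line. It gave 27.5, 5.66 and 11.9 normalized counts in BT549 siCtrl libraries and 21.3, 34.0 and 97.6 under siASAP1. In Hs578T it gave 11.0, 0 and 10.8 against 37.4, 4.05 and 24.5. In SUM149PT it gave 57.2, 34.6 and 52.8 against 29.1, 75.6 and 15.8. The groups overlapped in each line, and the Log2 FC was 1.66 (SE 0.82) in BT549, 1.71 (SE 1.32) in Hs578T and -0.51 (SE 0.73) in SUM149PT, none of them called. Single libraries moved these values. In BT549 CCND3 was called without BT549 siASAP1 replicate 1 (2.12) or BT549 siCtrl replicate 1 (2.20). The share of all probes called in those fits is not given here. In Hs578T the Log2 FC was 0.52 without Hs578T siCtrl replicate 2, whose count was 0, 1.12 without Hs578T siASAP1 replicate 1 and 2.59 without Hs578T siASAP1 replicate 2. In SUM149PT it was -0.73 without the library labelled SUM149PT siCtrl replicate 2, -0.0027 without SUM149PT siASAP1 replicate 3 and -1.10 without SUM149PT siASAP1 replicate 2.

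The E-type cyclins were measured in every line. CCNE1 (chr19:29811898-29824308, plus strand) encodes cyclin E1, the activator of CDK2 at the G1/S boundary. Its probe CCNE1_22579 gave 25.7, 31.0 and 19.2 normalized counts in SUM149PT siCtrl libraries and 6.61, 3.85 and 0 under siASAP1. All siASAP1 libraries lay below all siCtrl libraries, and the call was made (Log2 FC -2.96, SE 1.20, limma adjusted p = 0.47). These siASAP1 values rest on 0 to 5 reads, and the call was lost with voom weights on the reads, with library totals as the scale, or without the library labelled SUM149PT siCtrl replicate 2 (Log2 FC -2.80). It was also lost without SUM149PT siASAP1 replicate 3, the library at 0 (-2.09), and without SUM149PT siCtrl replicate 1 (-2.93) or 3 (-3.13). With a pseudocount of 10 the Log2 FC was -1.41, and the call held.

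In Hs578T the same probe went the other way. It gave 15.2, 4.08 and 4.93 normalized counts in siCtrl libraries and 15.9, 18.5 and 52.2 under siASAP1, so that the groups did not overlap but nearly met. The Log2 FC was 1.72 (SE 0.85) and was not called (limma adjusted p = 0.92), though it was without Hs578T siCtrl replicate 1 (2.24). In BT549 the values were 31.2, 20.1 and 42.1 against 32.0, 66.1 and 45.6, with a Log2 FC of 0.61 (SE 0.58). The difference between the lines was tested by the interaction of siASAP1 and cell line, which gave a limma adjusted p of 0.24 for this probe and did not pass. Of 10475 probes, 0.00955% (1 probe, not a member) were called for that interaction. The second probe, CCNE1_1070, had 21 reads in all, in 4 libraries, and could not be used to check the first.

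CCNE2 (chr8:94879770-94896678, minus strand), the gene of cyclin E2, was lower on average under siASAP1 in each line. It gave 378, 597 and 415 normalized counts in BT549 siCtrl libraries and 420, 139 and 182 under siASAP1. In Hs578T it gave 231, 109 and 290 against 111, 172 and 90.6. In SUM149PT it gave 88.7, 352 and 176 against 59.5, 14.1 and 139. The groups overlapped in each line, with 2, 1 and 2 of the 3 siASAP1 libraries below every siCtrl library. The Log2 FC was -1.05 (SE 0.48), -0.69 (SE 0.44) and -1.82 (SE 0.90) in BT549, Hs578T and SUM149PT. Over the 3 lines together it was -1.18 (SE 0.39, limma adjusted p = 0.13) and was not called. Within lines it was called without BT549 siASAP1 replicate 1 (-1.51, adjusted p = 0.047), Hs578T siCtrl replicate 2 (-1.10) or SUM149PT siASAP1 replicate 3 (-2.55). Among BT549 libraries, siASAP1 replicate 1 had the lowest r with the mean of its other replicates (0.876). The share of all probes called in these fits is not given here, so the CCNE2 calls cannot be set against it. In SUM149PT the Log2 FC of CCNE2 was -1.32 without the library labelled SUM149PT siCtrl replicate 2.

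The G1 kinases had the highest counts among the members. CDK4 (chr12:57747727-57756013, minus strand), a partner of the D-type cyclins, gave 21357, 11677 and 16068 normalized counts in BT549 siCtrl libraries and 13596, 9581 and 6662 under siASAP1. In Hs578T it gave 16974, 17712 and 15715 against 12167, 14378 and 11933. In SUM149PT it gave 11276, 21524 and 11568 against 8527, 6650 and 8060. All siASAP1 libraries lay below all siCtrl libraries in Hs578T and SUM149PT, and 2 of 3 did in BT549. The Log2 FC was -0.74 (SE 0.36), -0.39 (SE 0.20) and -0.87 (SE 0.38), none called, and without the library labelled SUM149PT siCtrl replicate 2 it was -0.57 in SUM149PT.

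Over the 3 lines the Log2 FC of CDK4 was -0.67 (SE 0.19, 95% interval -1.06 to -0.28). Its limma adjusted p of 0.072 did not pass, and the range was 0.049 to 0.16 over 7 other settings, with a pass at a minimum mean normalized count of 50. In the pooled comparison 0 of the 6 members tested were called, against 1.74% of all probes (182 of 10475). The count of members at an unadjusted p under 0.05 was 2 (CDK4 and CCNE2), and that of all probes was 1660. The interaction with cell line gave an adjusted p of 0.97 for CDK4.

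CDK6 (chr7:92604921-92836594, minus strand) encodes the second cyclin D-dependent kinase. In SUM149PT it gave 711, 565 and 667 normalized counts in siCtrl libraries and 2897, 1693 and 1994 under siASAP1. All 3 siASAP1 libraries were above all 3 siCtrl libraries, and CDK6 rose 3.32-fold at the limits of the study (647 ± 74.8 against 2195 ± 627, SD, n = 3; Log2 FC 1.73, SE 0.37). The limma adjusted p was 0.33 and did not pass. The call held in 8 other settings of scaling, filter, pseudocount, weights, block and fit and with each of the 6 libraries left out, with a Log2 FC of 1.51 to 1.94. An adjusted p under 0.05 was reached only in the fit of all 18 libraries (0.039). Without the library labelled SUM149PT siCtrl replicate 2 the Log2 FC was 1.63, with an adjusted p of 0.060.

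In the mesenchymal-like lines the CDK6 values overlapped. BT549 siCtrl libraries gave 384, 1165 and 1340 and siASAP1 libraries 1124, 635 and 517 (Log2 FC -0.23, 95% interval -1.39 to 0.92). The BT549 value ran from -0.80 without BT549 siCtrl replicate 1 to 0.10 without BT549 siCtrl replicate 3, so its direction rested on single libraries. Hs578T libraries gave 1019, 794 and 764 against 711, 907 and 1216 (Log2 FC 0.11, 95% interval -0.53 to 0.76). The interaction gave an adjusted p of 0.51, so a difference of the CDK6 effect between lines did not pass over all probes.

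**Figure D2:**
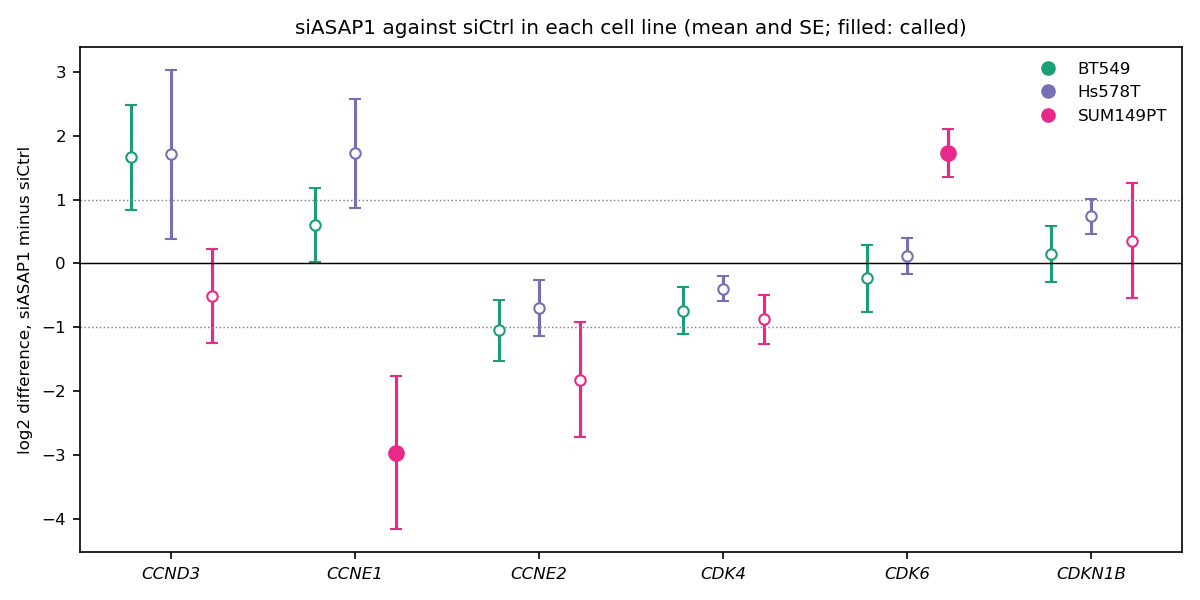
The vertical axis is the Log2 FC of siASAP1 against siCtrl with its SE for the 6 members tested in every cell line; filled points were called and dotted lines mark an absolute Log2 FC of 1. CDK6 (1.73) and CCNE1 (-2.96) in SUM149PT are the filled points, and the CDK4 and CCNE2 points are below 0 in each line.

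The ratio of the CDK6 to the CDK4 probe within a library does not depend on the scaling of libraries. CDK6 was at 6.30%, 2.62% and 5.76% of CDK4 in SUM149PT siCtrl libraries and at 34.0%, 25.5% and 24.7% under siASAP1. The ratio was higher by 2.60 on the log2 scale (-4.45 ± 0.70 to -1.85 ± 0.25, SD, n = 3; exact permutation p = 0.1, two-sided, the smallest possible), and higher by 2.20 without the library labelled SUM149PT siCtrl replicate 2. In BT549 it differed by 0.50 (exact permutation p = 1), and the sign turned (-0.28) without BT549 siCtrl replicate 1, in which CDK6 was at 1.80% of CDK4. In Hs578T it differed by 0.51 (exact permutation p = 0.2). In SUM149PT the probes thus changed unequally, and the ratio gives no ratio of molecules, since probes differ in efficiency.

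**Figure D3:**
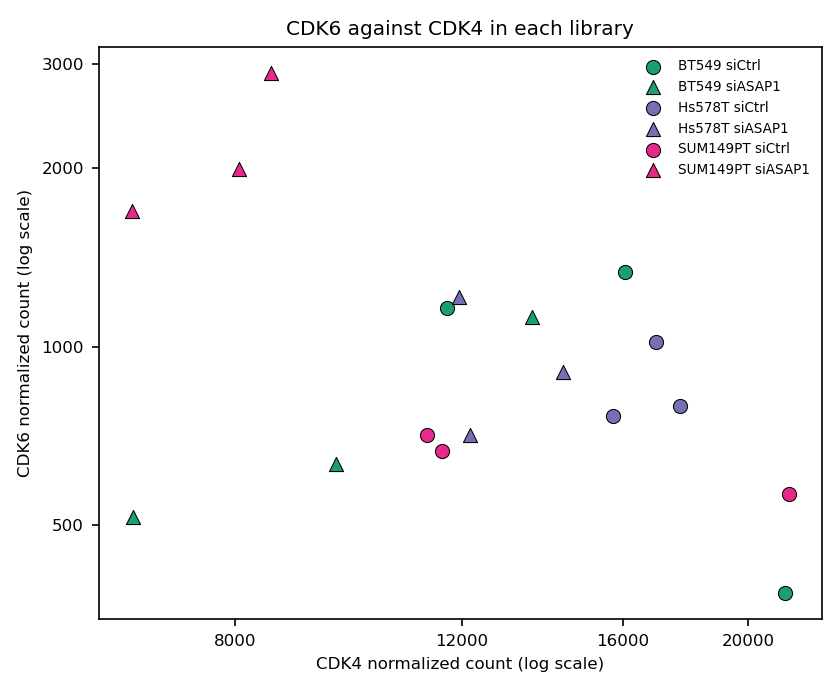
CDK6 normalized counts are plotted against CDK4 normalized counts for each of the 18 libraries, on log scales, with cell lines by colour, siCtrl as circles and siASAP1 as triangles. The 3 SUM149PT siASAP1 libraries lie apart at the top left, with CDK6 from 1693 to 2897 and CDK4 from 6650 to 8527.

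Promoter windows of 300 bases (250 before to 50 after an annotated start) were searched for letters bound by MYC and E2F factors, which are known regulators of G1 genes. RefSeq windows (GRCh38.p14) were found for 7 of the 10 symbols, in 11 windows. The E-box CACGTG, which reads the same on both strands and is bound by MYC and other basic helix-loop-helix factors, was in 2 windows. The CDK4 window held 3 copies, all before the start, and a CDK6 window held 1, after it, while 7.26% of 35116 promoter windows held at least 1 and 0.0940% held 3 or more. The E2F letters TTTCCCGC, TTTCGCGC, TTTGCCGC and TTTGGCGC, searched on both strands, were in 0 of the 11 windows and in 3.31% of all. The 4 E-box stretches are shown because CDK4 and CDK6 are the members whose windows held it, with the E-box in capitals and 10 bases on each side.
CDK4, chr12:57752511-57752536, minus strand: gtcaagcggtCACGTGtgatagcaac
CDK4, chr12:57752491-57752516, minus strand: agcaacagatCACGTGgctgccatcg
CDK4, chr12:57752396-57752421, minus strand: gggtggcggtCACGTGcccagaacgt
CDK6, chr7:92836528-92836553, minus strand: aggccgcggaCACGTGcggagagccg
A match is a description of these letters and does not show binding. No binding was measured in these libraries.

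The CDK inhibitors split into one that was well measured and a pair near the limit of detection. CDKN1B (chr12:12715058-12722371, plus strand), the gene of p27, gave 223, 245 and 309 normalized counts in Hs578T siCtrl libraries and 427, 403 and 455 under siASAP1. The groups did not overlap (Log2 FC 0.74, SE 0.28, limma adjusted p = 0.92), and the value was short of the fold limit. BT549 libraries gave 479, 362 and 333 against 246, 627 and 510 (Log2 FC 0.15, SE 0.44). SUM149PT libraries gave 742, 108 and 737 against 298, 1351 and 310 (Log2 FC 0.36, SE 0.90), and the sign turned without the library labelled SUM149PT siCtrl replicate 2, which holds the value of 108 (Log2 FC -0.56).

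CDKN1A (chr6:36676460-36687339, plus strand), the gene of p21 and a target of p53, had 53 reads in all, in 7 of 18 libraries. Its SUM149PT libraries gave 0, 0 and 6.39 normalized counts with siCtrl and 3.97, 10.3 and 11.8 with siASAP1, and the groups overlapped. In BT549 and Hs578T the probe had reads in 1 siASAP1 library each, at 16.4 and 10.7, and in 1 siCtrl library of Hs578T (0.844). CDKN2A (chr9:21967753-21995301, minus strand) encodes p16 and, from another reading frame, ARF. Its probe had reads in all 6 BT549 libraries, at 3.74, 0.629 and 5.61 normalized counts with siCtrl and 6.22, 4.72 and 16.4 with siASAP1 (exact permutation p = 0.2). In all 12 libraries of Hs578T and SUM149PT it had 0 reads, which allows up to 1.73 to 4.80 normalized counts. The BT549 values of 0.629, 3.74 and 4.72 lay under the highest of those limits, and 5.61, 6.22 and 16.4 lay above it. A single library with a value under that limit could not show the difference at this depth.

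Counts of called members were read against all probes. In SUM149PT 2 of the 7 members tested were called (CDK6 up, CCNE1 down), against 9.56% of 10078 probes, and 3 had groups without overlap, against 17.3%. Without the library labelled SUM149PT siCtrl replicate 2 it was 1 of 7 (CDK6), while 23.4% of 9953 probes were called, so the members' share lay above that of all probes with the library and below it without. In BT549 0 of 6 were called, against 6.97% of 9666 probes, and 0 were without overlap, against 13.9%. In Hs578T 0 of 6 were called, against 2.78% of 9500 probes, and 3 (CCNE1, CDK4 and CDKN1B) were without overlap, against 12.1%. At an adjusted p under 0.05 limma called 0% of probes in each line, while 754, 502 and 1025 probes had an unadjusted p under 0.05 in BT549, Hs578T and SUM149PT. The number of members at that p was 0, 1 and 2.

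The cell lines were compared among their siCtrl libraries, which carry the control siRNA pool. CDK4 and CDK6 differed between lines by Log2 values of -0.40 to -0.01 (limma adjusted p of 0.59 or more), and the 95% interval of CDK6 between SUM149PT and Hs578T ran from -1.42 to 0.62. Without BT549 siCtrl replicate 1, CDK6 in SUM149PT less that in BT549 was -0.95 (adjusted p = 0.072). The order of the lines by mean CDK4 was Hs578T (16800), BT549 (16367) and SUM149PT (14789), and neighbours in it did not differ beyond their spread. CCND3 was higher in SUM149PT than in Hs578T by 3.21 on the log2 scale (means of 48.2 and 7.27 normalized counts; SE 1.01, adjusted p = 0.0496), and the groups did not overlap. It was the only member called between control lines. The call was lost with upper quartile scaling (adjusted p = 0.051) or no filter (0.070), and without Hs578T siCtrl replicate 2, whose value was 0 (2.02, adjusted p = 0.14). It was also lost without Hs578T siCtrl replicate 1 (adjusted p = 0.057), SUM149PT siCtrl replicate 1 (0.12) or 3 (0.12), or BT549 siCtrl replicate 1 (0.056), 2 (0.062) or 3 (0.077), whose spread enters the same fit.

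CCNE1 was lower in Hs578T siCtrl libraries (8.06 ± 6.18) than in BT549 (31.1 ± 11.0) and SUM149PT (25.3 ± 5.91), by 1.97 and 1.72 on the log2 scale (adjusted p = 0.078 and 0.097). CCNE2 was highest in BT549 (464 ± 117 against 210 ± 92.0 and 205 ± 134, adjusted p = 0.20 and 0.13). The share of probes called was 13.9% between BT549 and Hs578T, 18.2% between SUM149PT and BT549 and 20.2% between SUM149PT and Hs578T, and the members called were 0, 0 and 1 of 6. Without the library labelled SUM149PT siCtrl replicate 2, CDKN1B was higher in SUM149PT than in BT549 (0.93, adjusted p = 0.032) and Hs578T (1.52, adjusted p = 0.00376), and CCNE2 was lower than in BT549 (-1.85, adjusted p = 0.017). How many of all probes were called in that fit is not given here.

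Among the siASAP1 libraries, CDK6 and CCNE1 were called between SUM149PT and each of the other lines. The share of all probes called among siASAP1 libraries is not given here, so these calls cannot be set against it. Among siCtrl libraries that share was 18.2% against BT549 and 20.2% against Hs578T. CDK6 was higher in SUM149PT than in BT549 by 1.57 and than in Hs578T by 1.21 on the log2 scale (adjusted p = 0.010 and 0.030), where the siCtrl values were -0.39 and -0.40. CCNE1 was lower in SUM149PT by 3.82 and 2.96 (adjusted p = 0.00998 and 0.028), where the siCtrl values were -0.25 and 1.72. These contrasts use the siASAP1 libraries that also gave the effects above and are not separate evidence of them.

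**Figure D4:**
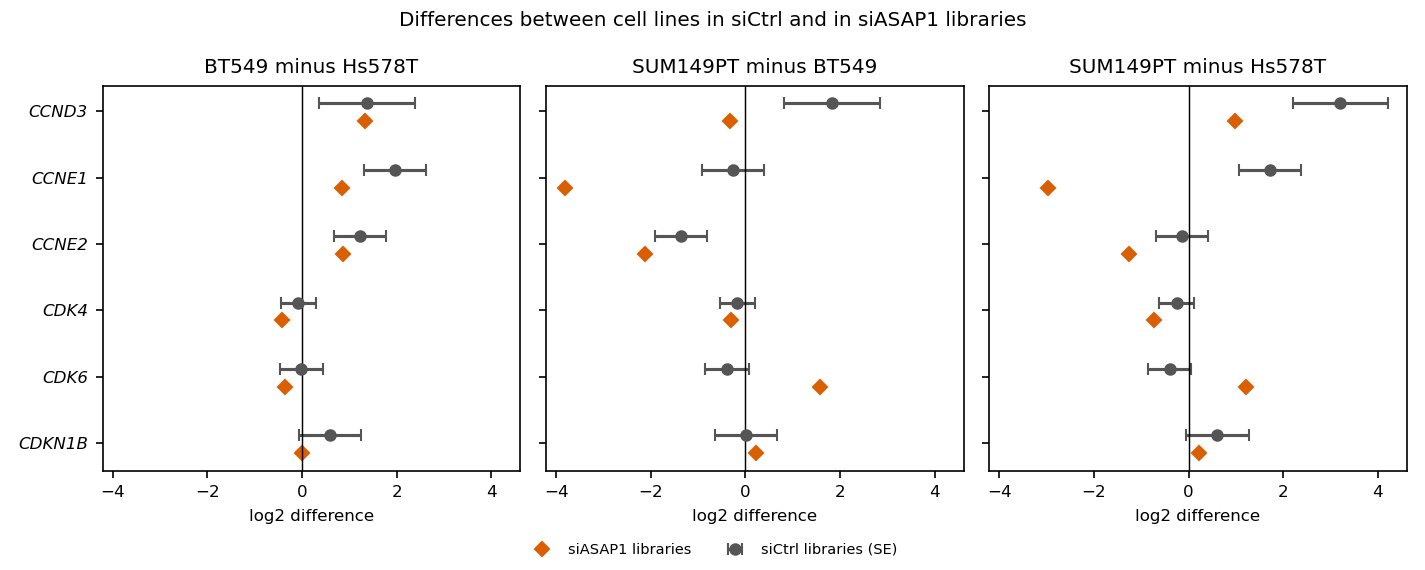
Each panel plots the difference of log2 values between a pair of cell lines for the 6 members tested, with siCtrl libraries as grey points and their SE and siASAP1 libraries as orange diamonds. CDK6 lies higher (1.57 and 1.21 against -0.39 and -0.40) and CCNE1 and CCND3 lie lower for siASAP1 than for siCtrl libraries in both pairs with SUM149PT.

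Genes that act with the members were read from lists chosen for their roles. Of the 4 other CDK inhibitors, CDKN2D, the gene of p19 of the INK4 family, was called up in BT549 (3.51 to 15.7 normalized counts against 21.3 to 119, Log2 FC 2.64) and down in SUM149PT (12.8 to 52.9 against 0 to 6.61, which are 0 to 5 reads, Log2 FC -3.61). CDKN2D and CDKN2C were called down in SUM149PT without the library labelled SUM149PT siCtrl replicate 2. CDKN2B, the gene of p15, had 0 reads in the SUM149PT siCtrl libraries and 38.6 to 59.9 normalized counts in those of BT549 (adjusted p = 0.00022), with 2.45 to 11.8 in Hs578T. Of the G1 kinases, activators and turnover factors, which include CDK7, CCNH and SKP2, 0 of 12 probes were called in any of the 3 lines. The shares of all probes called were 6.97%, 2.78% and 9.56% in BT549, Hs578T and SUM149PT. The list medians were -0.50, 0.28 and 0.24 in that order. Without the library labelled SUM149PT siCtrl replicate 2, 3 of the 12 were called up in SUM149PT (1 probe of SKP2 and 2 of FBXW7), near the 23.4% of all probes called in that fit.

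In the RB family and E2F list, RB1 had 0 to 3 reads in BT549 siCtrl libraries, against 144 to 170 normalized counts in Hs578T and 13.7 to 137 in SUM149PT (adjusted p = 0.00072 and 0.0025 for BT549 against each). E2F3, an activator E2F, was called up in BT549 (Log2 FC 1.29) and SUM149PT (1.18), and over the 3 lines it rose by 0.97 (SE 0.23, adjusted p = 0.035, and 0.057 without the library labelled SUM149PT siCtrl replicate 2). RBL2, which encodes the RB relative p130, was called down in BT549 (-1.70) and Hs578T (-1.63). TFDP1, an E2F partner, was called down in SUM149PT (-1.22). E2F3 and TFDP1 were still called in SUM149PT without the library labelled SUM149PT siCtrl replicate 2, and E2F6 was called up as well.

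Of the S phase genes driven by E2F, 4 of 14 probes tested were called down in SUM149PT (MCM6, CCNA2, MCM7 and MCM3) and 13 of 14 had a negative Log2 FC, with a median of -1.03 against 0.09 over all probes. Of all 10078 probes, 432 were called down in that line. CCNA2, the gene of cyclin A2, gave 497 to 641 normalized counts with siCtrl and 188 to 269 with siASAP1 (Log2 FC -1.39), with no overlap. Without the library labelled SUM149PT siCtrl replicate 2, 10 of the 14 were called down, while 23.4% of all 9953 probes were called in either direction. In BT549 and Hs578T, 1 of 15 was called, against 6.97% and 2.78% of all probes, and medians were 0.06 and -0.10. MCM6, a subunit of the replicative helicase, was that probe in both, and over the 3 lines it fell by 1.38 on the log2 scale (SE 0.22, limma adjusted p = 0.0035, and 0.0036 without the library labelled SUM149PT siCtrl replicate 2, where 1.53% of probes were called).

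The p53 pathway list had 3 of 14 probes called up in BT549 (GADD45A, 1.83, and both probes of TNFRSF10B, 1.19 and 1.15), 1 of 14 called down in Hs578T (PLK2, -1.24) and 1 of 15 called up in SUM149PT (GADD45A, 1.71). The shares of all probes called were 6.97%, 2.78% and 9.56% in BT549, Hs578T and SUM149PT. The medians were 0.44, 0.06 and 0.66. In SUM149PT without the library labelled SUM149PT siCtrl replicate 2, GADD45A was not called, and MDM2 and PLK2 were called up. These were 2 of 15 probes, while 23.4% of all 9953 probes were called in that fit. GADD45A is a stress gene that restrains the cycle, and TNFRSF10B is a death receptor.

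**Figure D5:**
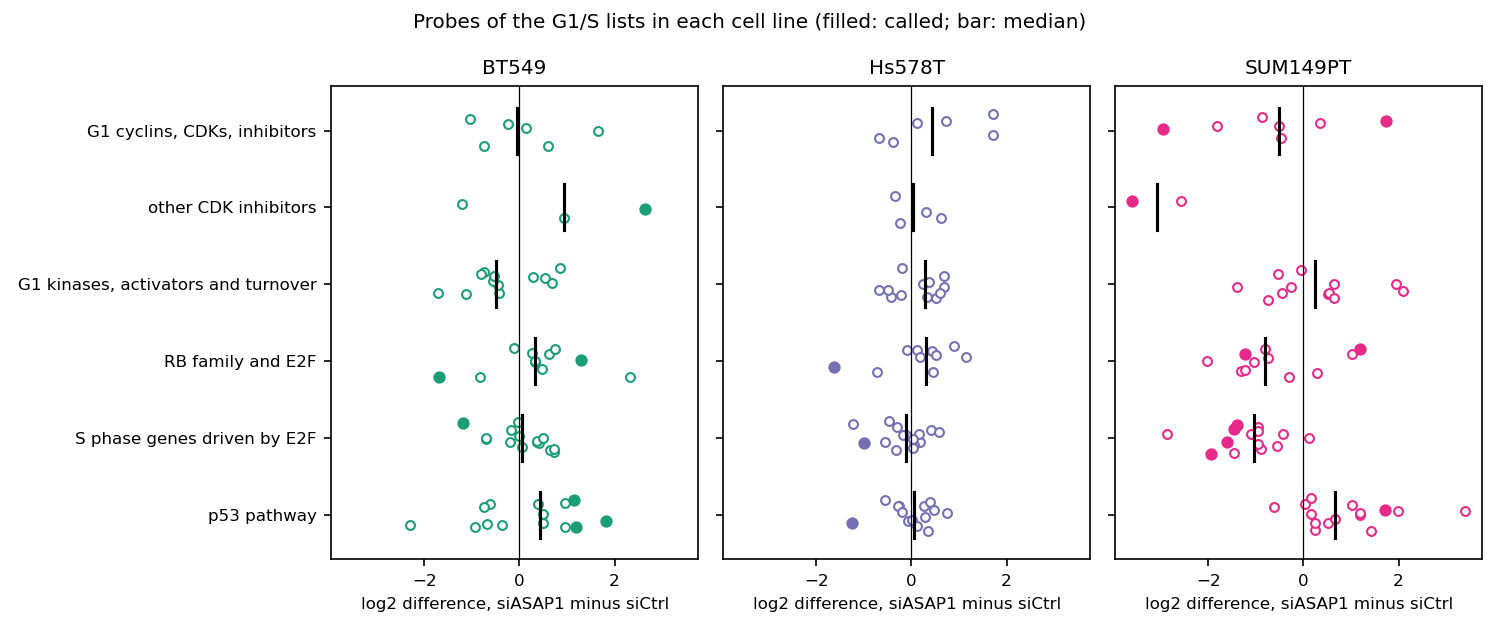
Points are probes of each list, placed by their Log2 FC of siASAP1 against siCtrl in a cell line; filled points were called and the black bar is the median. The S phase points lie mostly below 0 in SUM149PT (median -1.03) and around 0 in BT549 and Hs578T (0.06 and -0.10).

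Marker levels moved with siASAP1 in SUM149PT and BT549. The summed mesenchymal markers were at 5712 to 7078 normalized counts with siCtrl and 9893 to 11847 with siASAP1 in SUM149PT, and at 57093 to 58759 and 60528 to 110093 in BT549, with no overlap in either line. Of 5 mesenchymal probes tested in SUM149PT, the 3 of FN1 were called up and that of VIM down, against 9.56% of all probes. CDH2 had means of 1733 with siCtrl and 1843 with siASAP1. Without the library labelled SUM149PT siCtrl replicate 2, the calls were 2 probes of FN1 up and VIM down, against 23.4%. In BT549, 1 of 8 mesenchymal probes tested was called, down, against 6.97%. In SUM149PT the summed epithelial markers overlapped (31563 to 57105 and 29999 to 37188). Of 6 epithelial probes tested, CDH1 (87.9 to 114 against 210 to 263) and KRT17 (647 to 1941 against 2420 to 5514) were called up, against 9.56% of all probes. EPCAM and KRT8 (Log2 FC of -0.48 and -0.51), KRT18 and KRT5 were not called, and the list median was 0.52. Without the library labelled SUM149PT siCtrl replicate 2, CDH1 and KRT17 were called up and KRT18 down, against 23.4%. The list median was then -0.26. The part of the marker levels in the CDK6, CDK4 and CCNE1 values was not tested.

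The genes whose log2 values followed a member most closely over the 18 libraries were found by Pearson's r, as a description over libraries that share 3 cell lines. For CDK6 they were PPP2R2D (0.84), GGCX (0.84) and KIF1B (0.81). For CCNE1 they were IQCC (0.84), DNAJC9 (0.83) and DPCD (0.81). For CDKN2A, whose reads came from a single line, they were PNMA6A (0.95), C8orf46 (0.94) and CXCL5 (0.94). For CDKN1A they were RXRA (0.85), PRR4 (0.82) and WASH1 (0.82), and for CCND1 KRT15 (0.68), ZC3H12C (0.64) and LRIF1 (0.64), both from probes with few reads.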

How the data were processed

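The authors aligned reads to 21111 probes, divided each library by a size factor from DESeq2 and deposited log2(normalized count + 1) values. The submitters' notes name bcl2fastq, Bowtie and DESeq2, and the genome build is not given in the sources used here. Replicates were not pooled. Reads were recovered from the deposited log2 values. Values at low read counts, zeros included, were checked, and 100% of them were whole within 0.1. Higher values were rounded without this check. Chi-square per degree of freedom between replicate libraries was 10.1 or more, above sampling noise.

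Since the deposited values are normalized, limma 3.58.1 (lmFit, eBayes with trend, R 4.3.3) was run on log2 values, leaving out probes whose mean normalized count fell under 10. Each cell line was fitted on its 6 libraries, the shared effect and the interaction on 18, and control lines on 9. P-values were adjusted by Benjamini-Hochberg over all probes tested. Exact permutation tests were two-sided. Fits were tested on simulated data. The members and lists were chosen with earlier results of these data known. The text names every member, ASAP1, up to 4 called genes per list and comparison by smallest p, and the 3 probes most like 5 of the members. List genes named with values for orientation follow that rule in at least 1 comparison. Gene positions are from GENCODE v29 (GRCh38) and promoters from RefSeq (GRCh38.p14). A promoter table entry was not found for CCND1, CCND2 and CCNE2. Probe sequences were not used here, so the exon that a probe covers is not stated. Limits at a count of 0 are 3 reads and cover counting error only. Figures used Python 3.11.15 and matplotlib 3.10.9.

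Alternatives were 2 other scalings, no filter, a minimum mean of 50, a pseudocount of 10, voom weights on the recovered reads, the replicate block, all 18 libraries in the fit, siASAP1 in place of siCtrl libraries between lines, probes of a symbol summed, adjusted calls and each library left out. The list counts and the CDK6 to CDK4 ratio without the library labelled SUM149PT siCtrl replicate 2, and that ratio without BT549 siCtrl replicate 1, were added after the data were seen.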

Additional observations from a re-analysis of the deposited data

Results flagged for a closer look

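The effect of siASAP1 on the CCNE1 probe CCNE1_22579 went up in every Hs578T library and down in every SUM149PT library relative to all siCtrl libraries of the same line. The Log2 FC in Hs578T less that in SUM149PT was 4.68. The interaction over the 3 lines gave a limma adjusted p of 0.24, and over 24 other settings the adjusted p was 0.17 to 0.71. The probe had 0 to 49 reads in the 12 libraries.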

How the results depend on the processing

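Log2 values of members between or within lines kept their direction and side of the threshold in 657 alternatives, changed sign without a call in 31, were newly called in 15, lost their call in 17 and reversed in 3. Members called in BT549 (0) were 2 with no filter and 1 with voom weights, in Hs578T (0) 1 with all 18 libraries in the fit, and in SUM149PT (2) 1 with library totals, a minimum mean of 50 or voom weights and 0 by adjusted p. Over the 3 lines (0), 1 was called at a minimum mean of 50. Between control SUM149PT and BT549 (0), 1 was called with no filter and 2 with siASAP1 libraries. Between control SUM149PT and Hs578T (1), 0 were called with upper quartile scaling, no filter or a minimum mean of 50, and 2 with siASAP1 libraries. At a minimum mean of 50, the CCNE1 probe within SUM149PT and the CCND3 probe between these control lines were filtered out and not tested. With siASAP1 in place of siCtrl libraries the difference of CDK6 turned to 1.57 (SUM149PT less BT549) and 1.21 (less Hs578T), and that of CCNE1 to -2.96 (SUM149PT less Hs578T). With 1 library left out, the members called ranged from 0 to 2 in BT549, 0 to 1 in Hs578T, 1 to 2 in SUM149PT, 0 to 2 between control SUM149PT and BT549 and 0 to 2 between control SUM149PT and Hs578T. Fewer libraries enter those fits. Their share of all probes called is given only without the library labelled SUM149PT siCtrl replicate 2, within SUM149PT and over the 3 lines. For the fits of siASAP1 libraries between lines, that share is not given here. The cause of the other changes was not tested.

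Library totals moved the median Log2 FC of all probes to 0.30 in SUM149PT (from 0.09), 0.12 in Hs578T and 0.15 over the 3 lines, and that between control lines to 0.21 (BT549 less Hs578T) and -0.20 (SUM149PT less BT549). Same-numbered libraries did not deviate together in every pair (r from -0.65 to 0.35), and the main fits did not pair them. In Hs578T every library correlated best with its own number (r of 0.10 to 0.35), as did BT549 replicate 3 (0.11), and none did in SUM149PT. With the replicate block, 1 member (CDK6) was called in SUM149PT, CCNE1 losing its call, and the count was the same in the other comparisons.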
